A study of Mus musculus with 30 samples.

Results

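Transitional B cells are the newest B cells of the spleen. They were found here in droplet single-cell RNA sequencing of mouse spleen cells, as 2160 of the 53644 barcodes in 4 libraries. A barcode was taken if 200 or more genes were detected and no more than 10% of its UMIs (unique molecular identifiers, 1 per captured RNA molecule) were mitochondrial. It also needed at least 3 UMIs of the B lineage genes Cd79a, Cd79b and Ms4a1 together, at least 1 UMI of Vpreb3, and at least 2 UMIs of Klhl14, Agbl1 and Akap12 together. Cells with any UMI of Fcrl5, Bhlhe41, Il5ra, Mki67 or Top2a, or with more than 1 UMI of the Cd3 genes, were left out. The first filters kept 46886 cells, of which 25157 were B cells by the lineage and Cd3 criteria, so the transitional cells were 330 and 895 cells in Smc3-WT replicates 1 and 2, and 479 and 456 cells in Smc3-cKO replicates 1 and 2.

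The 4 libraries came from spleens depleted of red blood cells, 2 from Smc3-WT and 2 from Smc3-cKO mice, and the series as a whole is about cohesin and PU.1 in dendritic cells. Cohesin is a ring of proteins that extrudes loops of DNA, and Smc3 is among its core genes. The labels give the genotype only as these 2 names: they state neither the Cre line nor the deleted part of Smc3, so they do not say whether B cells were a target. An age of 6 to 8 weeks stands in the labels beside the sorted dendritic cells. Nothing in the labels says whether the 2 libraries of a genotype are 2 animals, so p-values between genotypes measure the spread between libraries, which may be technical. Where classes of cells were compared within libraries, p-values measure how far the difference between classes varied from library to library.

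B cells leave the bone marrow while still immature, and mature in the spleen through transitional stages. The early stage, T1, lacks CD23 (encoded by Fcer2a), carries CD93 and the heat stable antigen CD24 on its surface, and has far more IgM than IgD. The later stages gain CD23, CD21 (Cr2) and IgD, and lead to follicular or marginal zone B cells. Signals of the B cell receptor and of the survival factor BAFF set how many cells pass these stages, and self-reactive cells can be removed or silenced here. Vpreb3 encodes a small chaperone of the developing B cell receptor.

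Promoter windows of 3 genes are printed because Vpreb3 was part of the choice of cells, and Serinc5 and Spib are described below as higher in them. Each is 300 bases of RefSeq on GRCm38.p6, 5′ to 3′ on the gene's strand. It runs from 250 bases before to 50 bases after a start site listed for the gene. That site need not be the gene's outer end: the Vpreb3 window lies within the gene's span, chr10:75943024-75949657. The windows lie at chr10:75948050-75948349 (plus strand, Vpreb3), chr13:92610888-92611187 (plus strand, Serinc5) and chr7:44532022-44532321 (minus strand, Spib). Capitals mark matches on either strand to the core CCCNNGGG of the EBF1 motif, the core GAGGAA bound by PU.1 and SPIB, and the octamer ATTTGCAT bound by POU2F factors.
Vpreb3: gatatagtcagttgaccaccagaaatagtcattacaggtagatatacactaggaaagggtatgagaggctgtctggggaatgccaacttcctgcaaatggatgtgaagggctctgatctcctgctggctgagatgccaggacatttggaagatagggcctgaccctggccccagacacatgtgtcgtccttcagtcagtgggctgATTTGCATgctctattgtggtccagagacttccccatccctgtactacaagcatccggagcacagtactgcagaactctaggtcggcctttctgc
Serinc5: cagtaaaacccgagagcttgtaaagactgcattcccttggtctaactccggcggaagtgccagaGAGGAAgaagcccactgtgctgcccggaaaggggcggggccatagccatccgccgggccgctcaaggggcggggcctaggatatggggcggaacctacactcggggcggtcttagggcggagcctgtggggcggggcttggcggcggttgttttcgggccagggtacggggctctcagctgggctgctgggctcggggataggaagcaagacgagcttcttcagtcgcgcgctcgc
Spib: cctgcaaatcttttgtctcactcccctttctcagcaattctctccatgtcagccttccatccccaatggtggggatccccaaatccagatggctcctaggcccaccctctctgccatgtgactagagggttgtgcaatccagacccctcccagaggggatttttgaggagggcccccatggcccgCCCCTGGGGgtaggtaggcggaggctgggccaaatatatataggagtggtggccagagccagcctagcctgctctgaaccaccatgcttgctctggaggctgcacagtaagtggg
Of 32817 such windows of all genes, 1.74% held the octamer, 13.7% the EBF1 core and 28.3% GAGGAA. The Vpreb3 window held 1 octamer, the Serinc5 window 1 GAGGAA, and the Spib window 2 matches to the EBF1 core that overlap in all but 1 base. The window of Agbl1, another gene of the choice, was searched too and is not printed. It held no match to these letters. The octamer was added to the search after the windows had been read. A match is a description of letters, not a measured binding site.

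The cells were chosen by the measured UMIs of these genes, so the genes of the rule describe the cells and support nothing further. Agbl1, which encodes a carboxypeptidase-like protein, was detected in 78.5%, 70.6%, 76.4% and 67.1% of the transitional cells of Smc3-WT replicates 1 and 2 and Smc3-cKO replicates 1 and 2. It held 69.5% to 79.6% of the UMIs of the 3-gene sum, with up to 185 UMIs in 1 cell. Klhl14, which encodes an adaptor of a ubiquitin ligase, was detected in 67.1% to 71.2% of cells, and Akap12, a scaffold of protein kinase A, in 37.5% to 53.2%. Only 13.2% to 27% of the cells had UMIs of all 3 genes. The 384 cells just inside the threshold, with a sum of exactly 2, had 20.2 to 42.2 CPM (a gene's UMIs scaled to a common total) of Cd93 and 249 to 277 CPM of Fcer2a over the 4 libraries. The 713 cells just outside it, with Vpreb3 and a sum of 1, had 0.0 to 26.9 CPM of Cd93 and 204 to 363 CPM of Fcer2a. T cells, which should lack these genes, passed the Vpreb3 and 3-gene criteria in 1 of 692, 1 of 2185, 0 of 760 and 0 of 2335 cells. Vpreb3 alone was detected in 6.79% of the T cells of Smc3-WT replicate 1, against 0.870%, 0.395% and 0.557% in the other libraries. These T cells were chosen to have at most 1 UMI of the B lineage genes, so they can understate free B cell RNA.

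The libraries held 40367056 to 51299056 UMIs in 9074 to 16096 barcodes. The transitional cells had medians of 3569 and 2645 UMIs in Smc3-WT. Those of Smc3-cKO had 4343 and 2623, so Smc3-cKO replicate 1 was the deepest. Smc3-WT replicate 1 had the highest mitochondrial share (median 5.59% in the transitional cells, against 3.26% to 4.58% in the others). Its haemoglobin RNA was the highest too. There 5 erythroid genes summed to 6624 CPM in the transitional cells, against 560, 1618 and 300 CPM in the other libraries. In both measures the replicate 1 library of each genotype lay above both replicate 2 libraries. Smc3-cKO replicate 1 had a median mitochondrial share of 4.58%, and the replicate 2 libraries had 3.26% and 3.68%. Cells were not filtered for doublets, and the caller Scrublet marked 4, 30, 14 and 18 of the transitional cells. It marked 0.859% to 6.37% of all kept cells, against 7.26% to 12.9% expected from the number of barcodes. Between 36 and 61 barcodes were shared by each pair of libraries, and none of these was a transitional cell in both.

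To ask what sets these cells apart, their UMIs were summed per library and compared with those of 6303 Vpreb3-negative B cells. These passed the same filters but had no UMI of Vpreb3, Klhl14, Agbl1 or Akap12. They were shallower in each library, with medians of 2360 to 3646.5 UMIs. Of 11098 genes tested with edgeR's quasi-likelihood test and the library as a block, 2210 (19.9%) passed an adjusted p of 0.05, 1116 higher (10.1%) and 1094 lower (9.86%) in the transitional cells. All log2 changes in these paragraphs are of transitional over Vpreb3-negative cells, and CPM are scaled by TMM (trimmed mean of M values) within the comparison.

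The label was checked with genes the rule did not use. All 7 listed genes of immature or transitional B cells were higher, with a median log2 change of 1.19 against −0.01 over all genes tested. Cd93, the surface marker that defines the stage by flow cytometry, stood at 31.8, 34.0, 44.0 and 43.7 CPM in the transitional cells of Smc3-WT replicates 1 and 2 and Smc3-cKO replicates 1 and 2, against 6.39, 7.19, 6.78 and 9.03 CPM in the Vpreb3-negative cells of the same libraries. The 2 classes did not overlap, and Cd93 rose by 2.36 (SE 0.16, edgeR adjusted p = 2.47e-08). At 2000 UMIs per cell, 5.45% to 7.77% of the transitional cells had a Cd93 UMI, against 1.06% to 1.81% of the Vpreb3-negative cells and 0.0444% to 0.749% of the T cells. Cd24a, which encodes CD24, was at 290, 421, 367 and 373 CPM against 138, 126, 123 and 160 CPM, a rise of 1.41 (SE 0.09). Every transitional sum of it was above every Vpreb3-negative sum.

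Among the others, Myb, a transcription factor of progenitor and early B cells, rose by 1.29 (SE 0.12), Sox4, which acts in the same stages, by 1.19 (SE 0.20), and Ly6d, a surface protein of the early B lineage, by 1.17 (SE 0.08). Siglecg, an inhibitory lectin of B cells, rose by 0.88 (SE 0.07). All of these were higher in 4 of 4 libraries. The plot of 15 genes by library shows these markers with those that were lower.

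**Figure D1:**
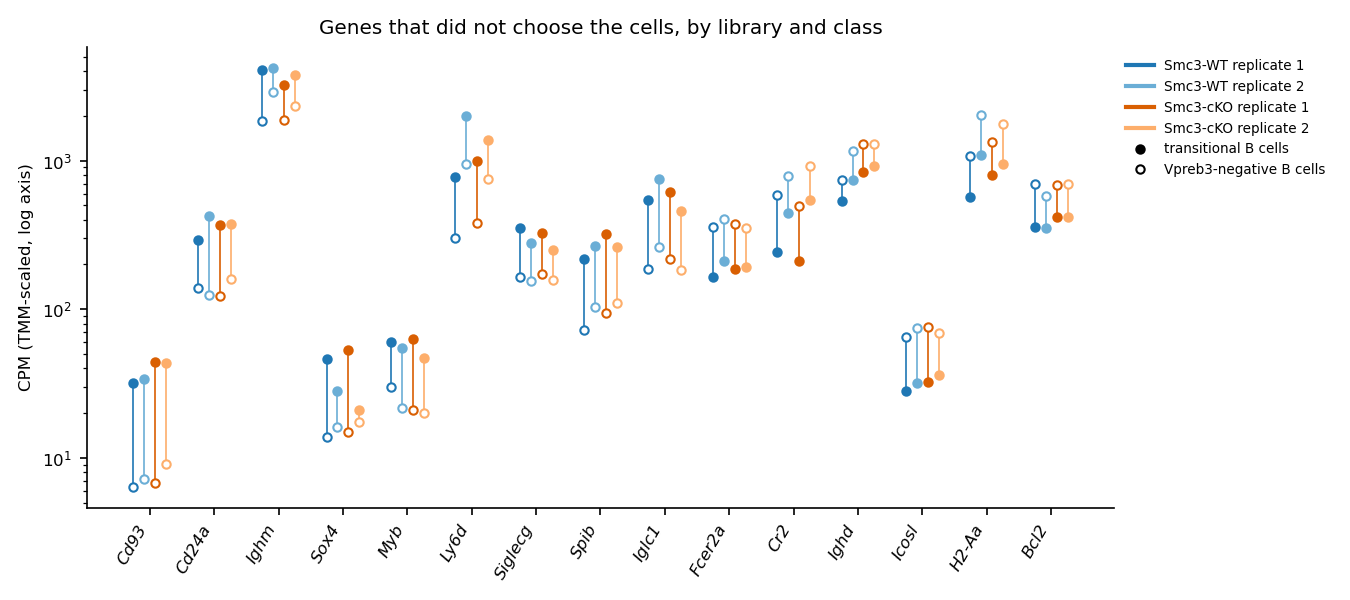
Expression in CPM (TMM-scaled, log axis) of 15 genes in transitional B cells (filled points) and Vpreb3-negative B cells (open points) of the same 4 libraries, joined by lines. Cd93 to Iglc1 are higher in the transitional cells of every library, with Cd93 at 31.8 to 44.0 against 6.39 to 9.03 CPM, and Fcer2a to Bcl2 are lower in every library.

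Of 9 listed precursor genes, 3 were tested, and Rag1 alone passed. Il7r, the interleukin 7 receptor (0.30, SE 0.26), and Lef1, a transcription factor (−0.21, SE 0.11), did not pass, and each was higher in 2 of 4 libraries. Rag1, which encodes a subunit of the recombinase of antigen receptor genes, gave 49 UMIs in 26 of the 2160 transitional cells, in all 4 libraries, and none in the 6303 Vpreb3-negative cells. Against a floor of 3 counts over the class, Rag1 was at least 36.6-fold higher per UMI of the class. Rag2, the partner subunit, gave 7 UMIs against 0, at least 5.23-fold higher on the same floor. Igll1, a surrogate light chain gene of pro- and pre-B cells, had no UMI in either class. Vpreb1, the other surrogate light chain gene, had 5 UMIs in each class, and Dntt, the terminal transferase of precursors, had 6 against 13. So a few cells carried recombinase RNA, while the defining surrogate light chain genes were at or near 0.

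Receptor genes moved in both directions. Ighm, the IgM heavy chain, was at 4071, 4203, 3251 and 3777 CPM in the transitional cells against 1846, 2908, 1883 and 2313 CPM, and rose by 0.79 (SE 0.08, adjusted p = 2.71e-06). Ighd, the IgD heavy chain, fell by 0.55 (SE 0.06), from 735 to 1298 CPM in the Vpreb3-negative sums to 537 to 921 CPM. Within a library, the transitional cells had 3.85 to 7.58 Ighm UMIs per Ighd UMI, and the Vpreb3-negative cells 1.45 to 2.51. The 2 ranges did not overlap. The value of 7.58 is from Smc3-WT replicate 1, where 1 transitional cell held 1141 of 5502 Ighm UMIs. The top 5 transitional cells held 23.5% of them there and 3.42% to 5.97% in the other libraries. In the Vpreb3-negative cells the top 5 held 5.92% to 22.9%.

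Of 13 listed immunoglobulin constant genes, 10 were tested, 2 were higher and 3 lower. Iglc1, a lambda light chain constant gene, was at 545, 748, 616 and 459 CPM against 186, 262, 219 and 183 CPM, and rose by 1.47 (SE 0.06, adjusted p = 1.28e-10). Igkc, the kappa constant gene, did not pass (−0.26, SE 0.22, adjusted p = 0.477). Cells whose light chain UMIs were at least 90% lambda, among cells with at least 5 such UMIs, were 9.09%, 8.12%, 8.55% and 7.16% of the transitional cells and 0.487%, 2.58%, 2.27% and 2.97% of the Vpreb3-negative cells. The exact 95% intervals of these shares, which cover counting error only and not free RNA, did not overlap within any library. At 2000 UMIs per cell the shares were 9.91%, 5.66%, 10.7% and 6.61% against 0.442%, 2.61%, 2.73% and 3.03%. Most scored cells held UMIs of both light chains: 73.4% to 84.2% of the transitional and 78.7% to 87.5% of the Vpreb3-negative cells lay between 10% and 90% lambda. The part of free RNA in these shares was not tested. The definition was chosen after the values were seen, and no test was run on it.

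Igha (−5.65, SE 0.36) and Jchain (−2.84, SE 0.52), the IgA heavy chain and the chain that joins secreted IgA and IgM, were the genes that fell most by the naming rule. Their RNA in the Vpreb3-negative sums came from few cells: the top 5 cells held 97.1%, 96.5% and 82.7% of the Igha UMIs in Smc3-WT replicates 1 and 2 and Smc3-cKO replicate 1, and 9.46% in Smc3-cKO replicate 2. Jchain is abundant in plasma cells. Cells with at least 10 Jchain UMIs were 5, 6, 10 and 1 of the Vpreb3-negative cells and 1, 2, 0 and 0 of the transitional cells. Without Smc3-cKO replicate 1 Igha was at −4.60. Without the cells of at least 10 Jchain UMIs Igha was at −0.62 (adjusted p = 0.00940), Jchain was at −0.38 (adjusted p = 0.0547) and Igkc rose by 0.41 (adjusted p = 0.000256). That alternative was chosen after seeing the data.

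The listed genes of mature follicular B cells were mostly lower: of 12 tested, 8 fell and 1, Cd40, rose, with a median log2 change of −0.38. Fcer2a was at 166, 211, 185 and 191 CPM against 356, 403, 375 and 354 CPM, and fell by 0.98 (SE 0.06, adjusted p = 1.34e-08). Cr2, the complement receptor CD21, fell by 1.0 (SE 0.08), from 495 to 915 CPM in the Vpreb3-negative sums to 212 to 540 CPM. The ranges of Cr2 overlap between libraries, while each library gave the same direction. Icosl, the ligand of the T cell receptor ICOS, fell by 1.16 (SE 0.10). Cd55, a complement regulator, fell by 0.43 (SE 0.07), and Cxcr5, the receptor for the follicle chemokine, by 0.34 (SE 0.07). Cd40 (0.21, SE 0.07, adjusted p = 0.0401) lost its call in 11 of 15 alternatives, which included each left-out library.

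All 10 listed genes of the MHC class II pathway, which presents antigen to CD4 T cells, were lower, with a median of −0.61. H2-Aa was at 570, 1091, 798 and 955 CPM against 1073, 2029, 1332 and 1757 CPM, and it fell by 0.86 (SE 0.06, adjusted p = 4.97e-08). In each library the transitional value was the lower one. H2-Eb1 fell by 0.79 (SE 0.06) and H2-Ab1 by 0.78 (SE 0.06). Ciita, the master regulator of the pathway, fell by 0.72 (SE 0.06). Cd74, the invariant chain, fell least (−0.22, SE 0.06) and lost its call in 6 of 15 alternatives.

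Of 29 listed B cell transcription factors, 13 were higher and 5 lower, with a median of 0.16. Spib, an ETS factor that acts beside PU.1 in B cells, was at 217, 265, 323 and 262 CPM against 72.1, 103, 93.9 and 109 CPM, and rose by 1.49 (SE 0.08, adjusted p = 2.1e-09). All 4 transitional values were above all 4 Vpreb3-negative ones. Arid3a, a factor of immature and innate-like B cells, was at 85.8, 74.6, 81.0 and 90.2 CPM against 26.0, 32.8, 31.0 and 32.5 CPM, a rise of 1.43 (SE 0.10). Tcf3, the E protein E2A, rose by 0.81 (SE 0.09), Ebf1, a factor that specifies the B lineage, by 0.52 (SE 0.06), and Pou2af1, the B cell coactivator of octamer factors, by 0.48 (SE 0.06). Foxo1, which drives recombinase expression in precursors, rose by 0.40 (SE 0.06), Pax5, the factor of B cell commitment, by 0.38 (SE 0.06), and Bach2, which holds back plasma cell fate, by 0.42 (SE 0.07). Klf2, a factor of quiescence and trafficking, rose by 0.49 (SE 0.06). Bcl6, the germinal centre factor, fell by 0.41 (SE 0.07). Spi1, which encodes PU.1, was at 0.23 (SE 0.08, adjusted p = 0.0497) and lost its call in 13 of 15 alternatives.

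Of 21 listed B cell receptor signalling genes, 10 were higher and 4 lower, with a median of 0.18. Lyn, a kinase that both starts and restrains the signal, rose by 0.60 (SE 0.06), Syk, the kinase that carries it on, by 0.57 (SE 0.06), and Vav2, an exchange factor, by 0.49 (SE 0.07). Lyn was at 2364, 2144, 2762 and 1886 CPM against 1477, 1426, 1724 and 1385 CPM, without overlap. Rasgrp3, which activates Ras, fell by 0.72 (SE 0.06), Fyn, another Src family kinase, by 0.54 (SE 0.08), and Nfatc1, a calcium-driven transcription factor, by 0.41 (SE 0.08). Of the inhibitors of the receptor, 11 of 12 were tested, 6 were higher and 1 was lower, with a median of 0.43. Besides Siglecg these included Cd72, a coreceptor (0.76, SE 0.08), Ptpn6, the phosphatase SHP-1 (0.50, SE 0.07), Csk, which restrains Src kinases (0.45, SE 0.06), and Fcgr2b, the inhibitory Fc receptor (0.43, SE 0.09). Cd22 was at −0.18 (SE 0.06, adjusted p = 0.0367) and lost its call in 7 of 15 alternatives.

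Genes that the receptor induces early were split. Of 15 listed, 14 were tested, 1 was higher and 4 lower, with a median of −0.22. Cd83, an activation marker, fell by 0.86 (SE 0.07), from 189 to 279 CPM to 123 to 160 CPM. The 2 ranges did not overlap. Nr4a1, the nuclear receptor Nur77, was at 19.2, 15.1, 12.9 and 19 CPM against 24.0, 24.3, 31.0 and 32.1 CPM, and it fell by 0.77 (SE 0.16). Myc, the growth factor-induced transcription factor, fell by 0.90 (SE 0.20), and Egr1, an immediate early factor, rose by 0.79 (SE 0.19). Egr1 lost its call in 3 of 15 alternatives, and Myc in 2.

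In the BCL2 family, which sets the threshold for cell death, 12 of 13 genes were tested, 3 were higher and 4 lower, with a median of 0.02. Bcl2, a survival protein, was at 357, 352, 415 and 420 CPM against 695, 580, 689 and 691 CPM, and fell by 0.78 (SE 0.06, adjusted p = 1.95e-07). Mcl1, the other main survival protein of B cells, was at 354, 502, 457 and 549 CPM against 220, 334, 309 and 367 CPM, and rose by 0.60 (SE 0.06). So these 2 genes moved in opposite directions in each of the 4 libraries. Among the death-promoting members, Bmf rose by 1.14 (SE 0.16), Pmaip1, which encodes NOXA, fell by 1.57 (SE 0.28), and Bcl2l11, which encodes BIM, did not pass (−0.14, SE 0.10). Bcl2a1b (−1.45) and Bcl2a1d (−1.57) fell too, but they are near-identical copies between which reads can be split, so their values are uncertain.

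Of 13 listed genes of BAFF and NF-kB survival, 12 were tested, 2 were higher and 1 lower, beside 19.9% of all genes that passed. The 2 higher genes were among the 3 listed receptors of BAFF and its relative APRIL. The third, Tnfrsf17, did not pass the filter on low counts. Tnfrsf13c, the BAFF receptor, was at 233, 314, 282 and 262 CPM against 140, 196, 191 and 234 CPM, a rise of 0.53 (SE 0.08). Tnfrsf13b, which encodes TACI, rose by 0.52 (SE 0.06). Of the other 10 genes tested in this list, 1 passed: Nfkb1, an NF-kB subunit, fell by 0.27 (SE 0.06). The list's median was −0.10.

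Of 18 listed migration receptors and regulators, 17 were tested, 3 were higher and 6 lower, with a median of −0.11. Ccr6, a chemokine receptor of mature B cells, was at 24.4, 49.5, 33.6 and 56.4 CPM against 92.4, 130, 111 and 130 CPM, and it fell by 1.51 (SE 0.10). The ranges did not overlap. Gpr183, the oxysterol receptor EBI2 that positions B cells in the follicle, fell by 1.15 (SE 0.09), and Itgb7, the beta 7 integrin, by 0.79 (SE 0.12). Rgs2, which dampens G protein signals, rose by 1.09 (SE 0.09). S1pr1, the receptor for leaving tissue into blood, rose by 0.31 (SE 0.07). S1pr3 rose by 1.04 (SE 0.26), in 3 of 4 libraries, and lost its call in 6 of 15 alternatives.

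Smaller counts came from the other lists. They stand beside the 19.9% of all genes tested that passed, 10.1% higher and 9.86% lower, and no list was tested against these shares. The few calls among cohesin, interferon or cell cycle genes are therefore no result about those lists. Of 10 marginal zone genes, 4 were higher and 4 lower. Cd36, a scavenger receptor, rose by 1.17 (SE 0.14), and Notch2, the receptor that directs marginal zone fate, fell by 0.33 (SE 0.07). Of 12 cohesin genes, Hdac8, the SMC3 deacetylase, rose by 0.35 (SE 0.06) and Pds5b, a regulator of the ring, by 0.24 (SE 0.06), and Wapl, which releases cohesin from chromatin, fell by 0.77 (SE 0.06). Wapl was at 141, 124, 121 and 138 CPM against 229, 207, 221 and 234 CPM, without overlap. Of 14 type I interferon genes 1, Ifi27l2a, rose (0.74, SE 0.06). Of 16 tested cell cycle genes, Ccnd2, cyclin D2, rose by 0.66 (SE 0.12), and Mcm6 and Tubb5 fell by 0.55 (SE 0.15) and 0.42 (SE 0.08). Of 9 tested toll-like receptor genes, Unc93b1, their chaperone, rose by 0.43 (SE 0.06), Cd180 rose by 0.29 (SE 0.07), and 1 fell. Of 3 tested B1 genes, Spn fell by 0.77 (SE 0.18). Calls were lost in 7 of 15 alternatives for Mcm6, in 4 for Pds5b and in 3 for Spn.

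Markers of other cells were lower or did not pass. The summed CPM of 6 T cell genes was 31.1 to 136 in the transitional cells and 54.5 to 219 in the Vpreb3-negative cells, and 2 of the 6 genes fell. The sums of 5 myeloid genes were 192 to 459 against 341 to 705 CPM (2 of 5 fell), and those of 5 dendritic cell genes 14.4 to 27.4 against 24.5 to 61.3 CPM (2 of 5 fell). For 4 NK cell genes the sums were 4.18 to 53.3 against 22.3 to 137 CPM, and 2 fell. Of 5 erythroid genes 1 fell, with sums of 300 to 6624 against 113 to 16354 CPM. Of 5 plasma cell genes 2, Jchain and Xbp1, fell, Xbp1 with its call lost in 7 of 15 alternatives, and of 2 platelet genes 1 was tested and did not pass. No list had all of its genes at 0, and the part of these cells in the results above was not tested.

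Beyond the lists, the naming rule took the 15 genes with the largest rise and the 15 with the largest fall, at 50 CPM or more. Reln, which encodes the secreted protein reelin, rose most. It was at 101, 67.9, 125 and 40.1 CPM against 5.07, 2.70, 12.6 and 4.15 CPM, a rise of 3.81 (SE 0.18, adjusted p = 5.29e-10). Reln RNA was uneven among cells: 24 to 63 transitional cells per library had a UMI, and the top 5 cells held 35.2% to 54.4% of the UMIs. Ralyl, an RNA-binding protein gene (2.91, SE 0.43), was narrower still, with 13 to 23 cells and 46.1% to 68.8% in the top 5.

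Serinc5 and Sox5 were broader. Serinc5, a membrane protein known for restricting retroviruses, was at 380, 251, 422 and 259 CPM against 56.9, 47.0, 53.2 and 38.1 CPM, a rise of 2.72 (SE 0.08, adjusted p = 1.26e-12). It was detected in 168 to 339 cells per library, and its promoter window is printed above. Sox5, a transcription factor of the SRY-box family, was at 556, 455, 571 and 329 CPM against 80.0, 77.3, 70.0 and 63.0 CPM, a rise of 2.69 (SE 0.09). The lowest transitional value of these 2 genes was 251 CPM, and the highest Vpreb3-negative value 80.0 CPM. Other genes of the rise were Akap17b (2.72), Dusp10, a phosphatase of stress kinases (2.57), Fam129c, also called BCNP1 (2.33), Wfdc21 (2.28), Pdzd2 (2.08), Sik1, a salt-inducible kinase (1.95), Gfod1 (1.94), Eps8, an actin regulator (1.87), and Nedd4, a ubiquitin ligase (1.84).

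Among the genes that fell, St8sia6, a sialyltransferase, was at 22.9, 15.5, 16.8 and 12 CPM against 68.8, 57.7, 60.3 and 53.6 CPM (−1.85, SE 0.12). Plaur, the urokinase receptor, fell by 1.71 (SE 0.13), and Atxn1, a chromatin-binding repressor, by 1.69 (SE 0.12). Setbp1 was at 228, 232, 224 and 259 CPM against 593, 581, 675 and 602 CPM (−1.38, SE 0.07). None of these overlapped between classes. The rest, besides Igha, Jchain and Ccr6, were St6galnac3, another sialyltransferase (−1.48), Klf12 (−1.48), H2-Eb2, an MHC class II gene (−1.47), Gimap4, a lymphocyte GTPase (−1.46), Ldlrad4 (−1.44), Patj (−1.43), Stat4 (−1.42) and Rapgef4 (−1.41).

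**Figure D2:**
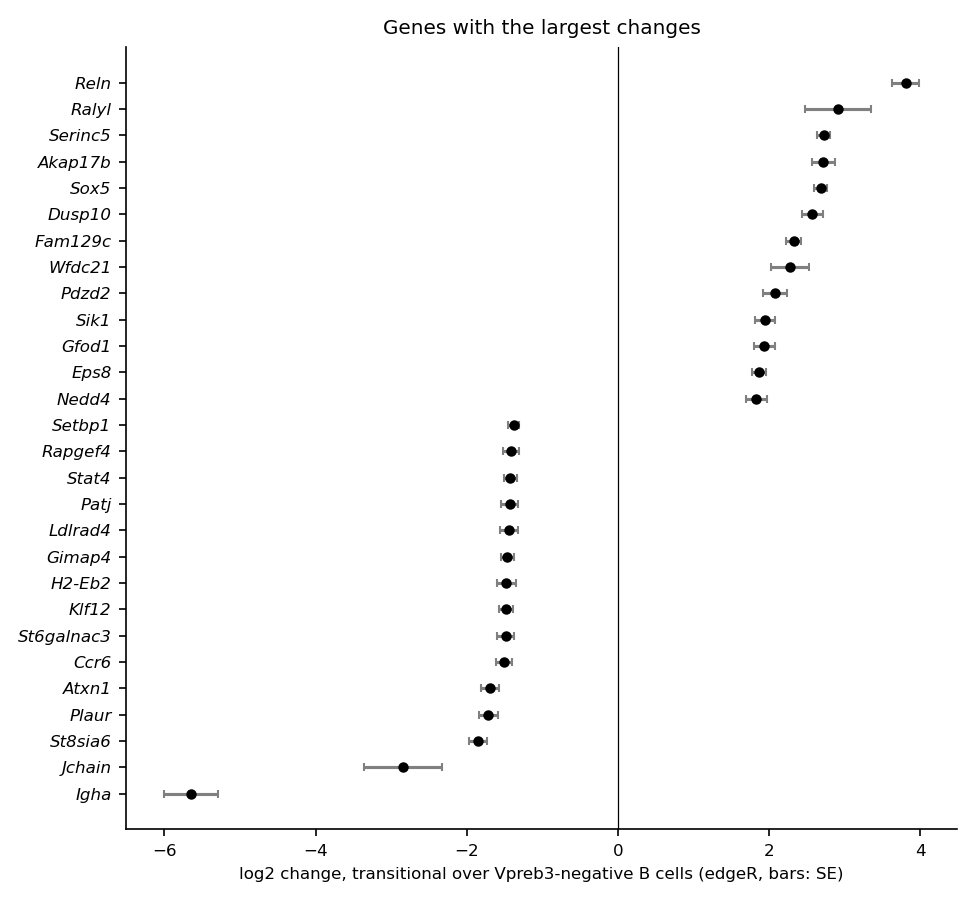
Log2 change (x axis) of genes with the largest rises and falls in transitional over Vpreb3-negative B cells, with the standard error of the edgeR fit over 4 libraries as bars. Rises run from 1.84 (Nedd4) to 3.81 (Reln) and falls from −1.38 (Setbp1) to −5.65 (Igha).

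The counts of this comparison depend on the model: DESeq2 called 1079 genes, 1078 of them among the 2210, and a fit without the library block 611. The depth-matched draw, in which Vpreb3-negative cells were drawn to the UMI distribution of the transitional cells, called 1777 genes and kept 1508 of the 2210, all in the same direction.

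To set the transitional cells against another splenic subset, they were compared with 861 Fcrl5-positive cells of the same filters that had no UMI of the 4 chosen genes. Fcrl5 marks marginal zone B cells among others, and was part of the choice. This comparison uses the same transitional sums as the one above, so the 2 sets of values stand side by side and are not independent. Of 9615 genes 2003 (20.8%) passed, 978 higher (10.2%) and 1025 lower (10.7%). Of 10 listed marginal zone genes, 8 were lower and none was higher, with a median of −1.07 against −0.01 over all genes.

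Cr2, which is highest on marginal zone B cells, was at 248, 442, 214 and 537 CPM in the transitional cells against 1265, 1667, 1327 and 2099 CPM in the Fcrl5-positive cells, and it fell by 2.21 (SE 0.13, adjusted p = 4.96e-08). Cd9, a tetraspanin, was at 12, 10.7, 9.13 and 8.40 CPM against 38.1, 53.8, 85.4 and 81.6 CPM, and it fell by 2.67 (SE 0.24). Dtx1, a Notch target, fell by 2.48 (SE 0.13), and S1pr3, which guides marginal zone cells, by 1.87 (SE 0.27). In these 4 genes the Fcrl5-positive values lay above all transitional ones. Cd36 fell here by 0.66 (SE 0.12) and Plac8 by 0.60 (SE 0.14). Plac8 lost its call in 4 of 10 alternatives, and Cd36 in 1.

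The 7 immature genes were all higher, with a median of 1.10. Cd93 was at 32.4, 33.8, 44.3 and 43.4 CPM against 1.41, 1.10, 4.66 and 5.10 CPM (3.58, SE 0.31). Fcrl5-positive cells gave 1 to 6 Cd93 UMIs per library, which limits this fold. Of 28 transcription factors tested 16 were higher and 1 lower, among them Spib (1.73, SE 0.12), Klf2 (1.53, SE 0.12) and Bach2 (1.49, SE 0.12). Bcl2 fell by 0.94 (SE 0.10), H2-Aa by 0.61 (SE 0.10), and 5 of 10 MHC class II genes were lower. Ighm rose by 0.73 (SE 0.11), Igkc by 0.89 (SE 0.14) and Iglc1 by 1.14 (SE 0.20). Ccr7, the receptor for the T cell zone chemokines, rose by 0.51 (SE 0.14) but lost its call in 4 of 10 alternatives.

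By the naming rule large rises were in Wfdc21 (4.68), Reln (4.42), Ralyl (4.12), Serinc5 (3.96), Lifr, the receptor of leukaemia inhibitory factor (3.09), Gfod1 (2.59) and Eps8 (2.53). Reln had 9, 1, 1 and 1 UMIs in the Fcrl5-positive sums, and Lifr had 3, 7, 2 and 10, which limits their folds. Wfdc21 and Ralyl were at 0 CPM in at least 1 Fcrl5-positive library, so their folds depend on the model's prior count. Serinc5, at 387, 250, 426 and 257 CPM against 36.7, 14.3, 21.7 and 13.6 CPM, did not depend on such zeros. The largest falls were in Atxn1 (−4.12), Nebl (−3.63), Zc3h12c, an RNase (−3.57), Il9r, the interleukin 9 receptor (−3.39), Ptpn14, a phosphatase (−3.11), St8sia6 (−2.93), Ptk2, focal adhesion kinase (−2.71), and Cd9. Atxn1 was at 77.5, 30.5, 47.4 and 49.7 CPM against 679, 781, 923 and 1052 CPM. A depth-matched draw left 20 to 70 Fcrl5-positive cells per library and called 547 genes, and DESeq2 called 1000.

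The transitional cells were then split among themselves by Fcer2a, since CD23 separates the early from the later stages. To give both sides the same depth, each cell was thinned to 2000 UMIs, and shallower cells were left out. Of the 312, 773, 466 and 386 cells left, 19.9%, 27.4%, 20.8% and 23.3% had an Fcer2a UMI. Without thinning, the shares of all transitional cells, the shallower ones included, were 33.0%, 32.2%, 33.6% and 29.4%. In Vpreb3-negative cells at the same depth the shares were 46.6% to 50.7%, and in T cells, which should lack the gene, 0.533% to 5.24%. A cell with no Fcer2a UMI at this depth may still express it. Besides Fcer2a, 209 of 7044 genes (2.97%) differed, 110 higher (1.56%) and 99 lower (1.41%) in the Fcer2a-positive cells. Without the library block 14 genes were called, against 210 with it when Fcer2a is counted.

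Genes of mature cells were higher on the Fcer2a-positive side: of 11 listed follicular genes tested besides Fcer2a 5 rose and none fell, with a median of 0.51 against 0.00 over all genes. Cr2 was at 470, 606, 444 and 700 CPM in Fcer2a-positive against 188, 354, 142 and 468 CPM in Fcer2a-negative cells, a rise of 0.95 (SE 0.10, adjusted p = 7.37e-14). Each library gave this direction, though the groups overlap between libraries. Ighd rose by 0.56 (SE 0.08). Cxcr5 (0.51, SE 0.16, adjusted p = 0.0439) was higher in 3 of 4 libraries and lost its call in 6 of 9 alternatives. Icosl was at 1.02 (SE 0.32, adjusted p = 0.0543).

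Of the 10 MHC class II genes 7 rose and none fell, with a median of 0.56. H2-Aa was at 990, 1440, 982 and 1428 CPM against 551, 959, 752 and 749 CPM, a rise of 0.67 (SE 0.07, adjusted p = 2.48e-13). All 4 values of the positive side were above all 4 of the negative side. Ciita rose by 0.53 (SE 0.13) and H2-Eb1 by 0.62 (SE 0.09). Bcl2, the survival gene, was at 688, 472, 507 and 502 CPM against 259, 287, 327 and 361 CPM, a rise of 0.77 (SE 0.10), also without overlap. Cd83 rose by 1.08 (SE 0.16) but in 3 of 4 libraries, and most in Smc3-cKO replicate 1 (449 against 87.6 CPM). Without that library its adjusted p was 0.181. Gpr183 rose by 0.82 (SE 0.19) and Wapl by 0.65 (SE 0.16), and each lost its call in 2 of 9 alternatives.

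Immature genes were higher on the Fcer2a-negative side: of the 7 listed, 3 fell in the positive cells and none rose, with a median of −0.32. Ighm fell by 0.32 (SE 0.05), with 3111, 3821, 3085 and 3127 CPM against 4068, 4543, 3666 and 4162 CPM. Cd24a fell by 0.45 (SE 0.11) and Myb by 1.11 (SE 0.29). Cd93 did not pass (−0.57, SE 0.32, adjusted p = 0.526), although it was lower in 4 of 4 libraries. Ebf1 fell by 0.32 (SE 0.04) and Bach2 by 0.27 (SE 0.05). The kinases Syk and Lyn fell by 0.34 (SE 0.07) and 0.23 (SE 0.06). Calls were lost in 4 of 9 alternatives for Myb, in 3 for Ighm and Lyn, and in 2 for Cd24a and Syk.

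Several genes with large changes in the class comparison also divided the transitional cells. By the naming rule large falls on the positive side were in Atp1b1, a subunit of the sodium pump (−1.46), Serinc5 (−1.31), Sox5 (−1.12), Dusp10 (−1.05), Kctd3 (−0.99), Galnt7 (−0.97) and Selplg, the selectin ligand PSGL-1 (−0.88). Serinc5 was at 193, 125, 222 and 130 CPM against 490, 327, 493 and 333 CPM, and Sox5 at 285, 215, 359 and 260 CPM against 711, 593, 652 and 402 CPM, neither with overlap. The largest rises were in Gpr174, a lysophosphatidylserine receptor (1.12), Setbp1 (1.11), Pgap1 (1.05), St6galnac3 (1.05), Rapgef4 (1.04), Rasgef1b (1.02), Cr2 and Ms4a4c (0.89). Setbp1 was at 428, 322, 423 and 373 CPM against 207, 169, 178 and 151 CPM. Of the rule's genes, Sox5, Serinc5 and Dusp10 and, in the other direction, Setbp1, St6galnac3 and Rapgef4 were named in both comparisons. The sets are not independent, since both contain the transitional cells. The 4 erythroid genes tested fell too, with a median of −0.69. Erythroid RNA was highest in Smc3-WT replicate 1, and its part in this split was not tested.

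**Figure D3:**
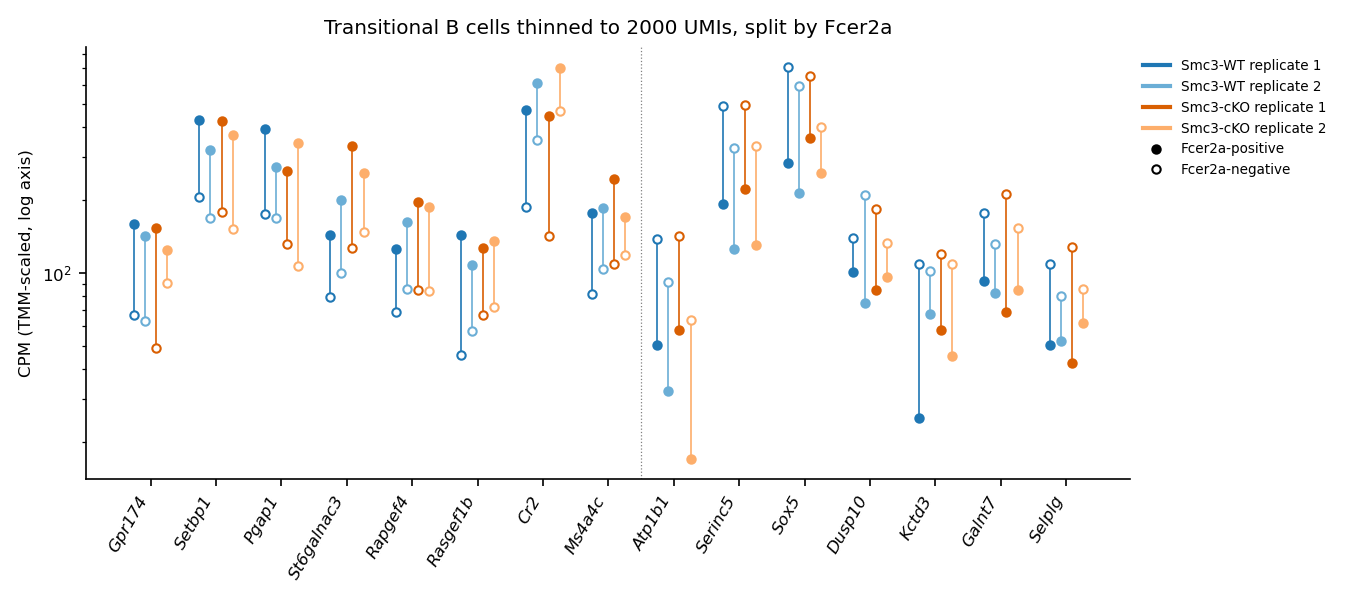
Expression in CPM (TMM-scaled, log axis) of genes with the largest rises (left of the dotted line) and falls (right) in Fcer2a-positive (filled) against Fcer2a-negative (open) transitional cells of the same library, at 2000 UMIs per cell. Serinc5 falls from 327 to 493 CPM in the negative cells to 125 to 222 CPM in the positive cells.

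The share of transitional cells among B cells was compared between genotypes. The Smc3-WT libraries gave 5.27% and 11.5%, the Smc3-cKO libraries 12.2% and 6.36%. The 2 genotypes overlap fully, with means of 8.37% ± 4.39 (SD, n = 2) and 9.30% ± 4.16 (SD, n = 2), and the exact permutation test, two-sided, gave p = 0.667. With 2 libraries against 2 the smallest p it can give is 0.333. At 2000 UMIs per cell the shares were 4.37%, 10.1%, 9.45% and 5.23%. In cells with at most 5% mitochondrial UMIs they were 11.1%, 11.9%, 15.5% and 7.18%, so Smc3-WT replicate 1 moved most. The difference between genotypes lay between −2.17 and 4.03 percentage points when 1 library was left out. In these data fewer transitional cells and less RNA of the chosen genes per cell cannot be told apart.

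**Figure D4:**
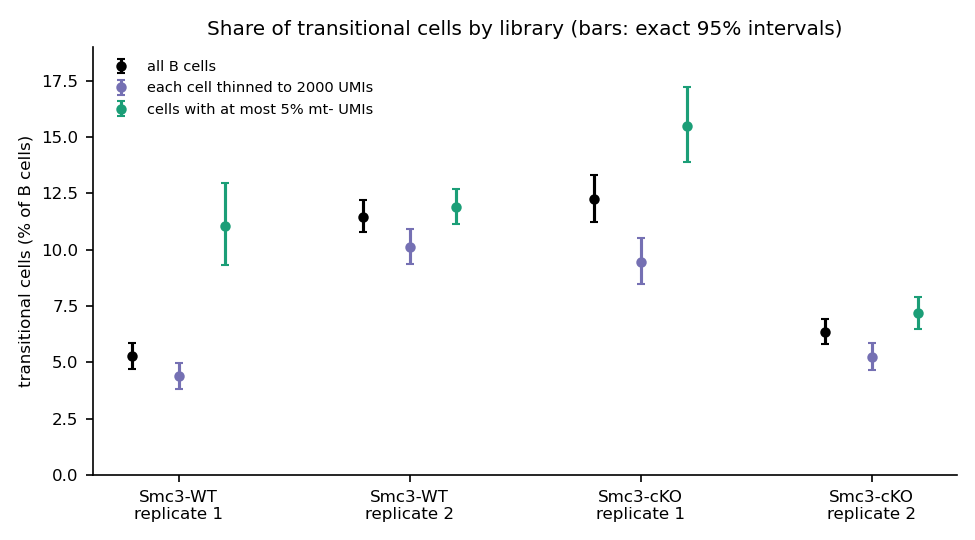
Share of transitional cells (y axis, percent of B cells) in each of the 4 libraries, with exact 95% binomial intervals that cover counting error only, for all B cells, for cells thinned to 2000 UMIs and for cells with at most 5% mitochondrial UMIs. The Smc3-WT values (5.27% and 11.5%) and the Smc3-cKO values (12.2% and 6.36%) interleave.

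The targeted gene was looked at first within the transitional cells. Smc3 was at 108 and 116 CPM in Smc3-WT, and at 98.4 and 115 CPM in Smc3-cKO, with a log2 change of −0.08 (SE 0.18) for Smc3-cKO over Smc3-WT. In the Vpreb3-negative cells it was −0.13 (SE 0.18). The counts come from 3′ ends, and since the deleted part is not given, this level neither shows nor disproves a deletion in B cells.

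No gene passed edgeR's test between genotypes in the transitional cells (0 of 9635, 0.0%). The unadjusted p was below 0.05 for 184 of the 9635 genes, a smaller share than the 0.05 that no effect at all would give on average. DESeq2 called 3 genes: Plcb4, Adam23 and Cox6a2. With replicate number as a block in edgeR, the unadjusted p was below 0.05 for 580 genes, and 25 were called. No label says that these numbers pair libraries. In simulated data of the design without this block, 40.4% of genes changed 2-fold and 83.9% of genes changed 4-fold were called. The simulated spread between libraries followed expression level alone, without a spread of each gene's own. These shares therefore do not give the power of the test on the real libraries. None of the 7 immature genes differed, with Cd93 at 0.40 (SE 0.22), Cd24a at 0.05 (SE 0.20) and Ighm at −0.24 (SE 0.21). Fcer2a was at −0.02 (SE 0.17), Cr2 at 0.11 (SE 0.44), Bcl2 at 0.23 (SE 0.16) and Spib at 0.27 (SE 0.18). The median of the 12 cohesin genes was 0.07, and that of all genes 0.00.

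The gene with the smallest p was Plcb4, which encodes a phospholipase C that acts downstream of G protein-coupled receptors. It was at 7.52 and 1.46 CPM in Smc3-WT, and at 160 and 114 CPM in Smc3-cKO, a log2 difference of 5.23 (SE 0.51, adjusted p = 0.165). The libraries of the 2 genotypes are far apart. UMIs of Plcb4 were in 7 and 2 transitional cells of Smc3-WT, and in 156 and 102 cells of Smc3-cKO. The gene was called in 7 of 14 alternatives, among them DESeq2 (adjusted p = 0.00332), cells with at most 5% mitochondrial UMIs (0.00146) and the set without the 5% deepest B cells (0.00225). Over all alternatives its adjusted p ran from 1.06e-47 to 0.9999, and it was not called without either Smc3-cKO library. In the Vpreb3-negative cells it was at 5.13 and 3.38 against 67.0 and 48.5 CPM (3.75, SE 0.33, adjusted p = 0.496). In T cells at 2000 UMIs, 5.54% and 4.39% of Smc3-WT cells and 13.3% and 17% of Smc3-cKO cells had a UMI of it.

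The other 9 genes of smallest p all had an adjusted p of 0.999. Cox6a2, a subunit of cytochrome c oxidase, was at 3.01 and 3.29 against 44.6 and 17.4 CPM (3.30, SE 0.57). Adam23, a non-catalytic membrane ADAM, was at 44.4 and 15.7 against 0.433 and 4.19 CPM (−3.84, SE 0.86), but 5 cells held 96.6% of its UMIs in Smc3-WT replicate 1, and 3 cells held them all in replicate 2. Jchain, at 207 and 61.9 against 25.6 and 20.9 CPM, held 241 of its 276 UMIs in 1 cell of Smc3-WT replicate 1. Ifitm3, an interferon-induced membrane protein, was at 12.8 and 13.2 against 30.8 and 29.3 CPM (1.21, SE 0.27). Csf3r, the receptor of a granulocyte growth factor, was at 6.77 and 6.59 against 18.2 and 21.6 CPM (1.56, SE 0.35). Without the cells that Scrublet marked, Csf3r was at −0.17. The noncoding genes Gm16599 (−1.28), Gm13561 (−1.48) and Gm42836 (−1.67) and the synaptic scaffold gene Frmpd4 (−2.07) were lower in both Smc3-cKO libraries than in both Smc3-WT libraries. Hbb-bs, an erythroid gene, was at 2817 and 247 against 540 and 115 CPM.

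**Figure D5:**
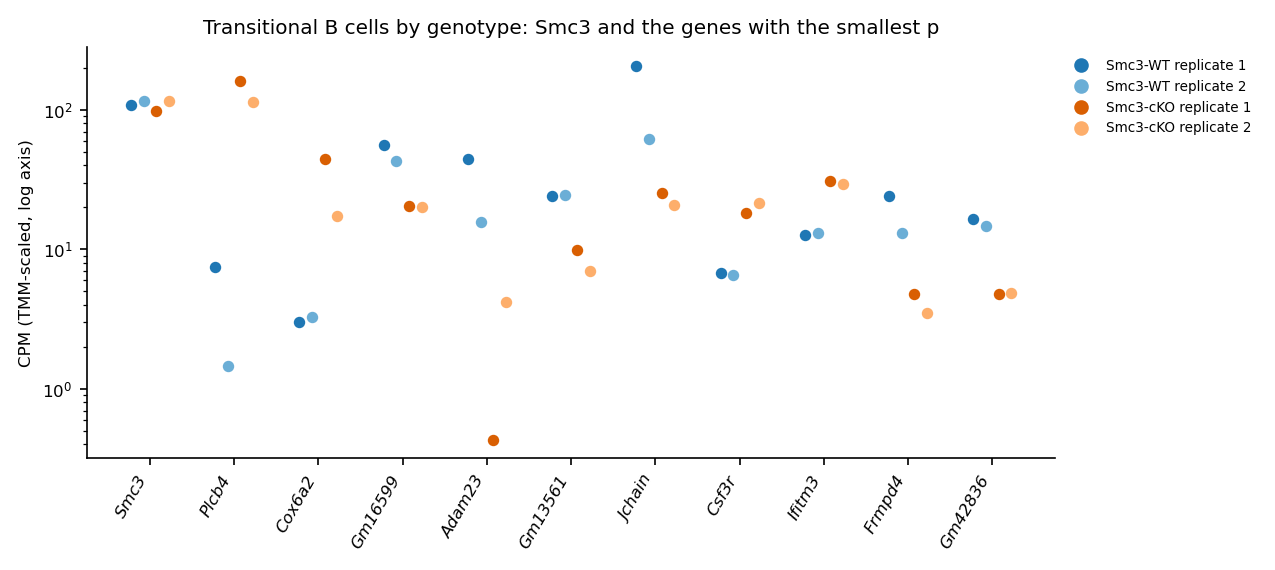
Expression in CPM (TMM-scaled, log axis) of Smc3 and of the 10 genes with the smallest p between genotypes, in the transitional cells of each of the 4 libraries. Smc3 lies between 98.4 and 116 CPM in all of them, and Plcb4 lies at 1.46 and 7.52 CPM in the Smc3-WT and at 114 and 160 CPM in the Smc3-cKO libraries.

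In the Vpreb3-negative cells no gene passed either (0 of 11269, 0.0%), and DESeq2 called 7. The unadjusted p was under 0.05 for 193 of the 11269 genes, again a smaller share than 0.05. With the replicate block these were 665 genes, and 33 were called. An interaction term, in a fit blocked on library, tested whether the genotype effect differed between the classes. It called 4 of 11098 genes (0.036%): Ccl5, Ngp, Camp and Ltf. In all 4 the log2 change of Smc3-cKO over Smc3-WT was lower in the transitional than in the Vpreb3-negative cells. Plcb4 was not among them.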

How the data were processed

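RNA of spleen cells was captured with 10x Chromium in 4 libraries, 2 per genotype. The authors deposited whole-number UMI counts of 32285 genes in each barcode. The tool was Cell Ranger 7.0.0, per the file headers. The genome build was mm10 per the submitters' processing notes, and the annotation is not given in the sources used here. The other 26 of 30 samples of the series were not analysed here.

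The transitional cells, the gene lists and the tests were chosen with earlier results of these data known. Within each library the counts of a class were added up, and the sums were tested with edgeR 4.0.16 (quasi-likelihood, TMM, its filter on low counts, Benjamini-Hochberg adjusted p of 0.05). Class comparisons had the library as a block, and genotype comparisons used 2 libraries against 2. DESeq2 1.42.0, other scalings, cell filters and left-out libraries were alternatives. The share was tested by an exact permutation test. The scripts were tested on simulated data. Exact (Clopper-Pearson) 95% intervals and floors of 3 counts cover counting error only.

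Genes were named by fold among genes called, changed the same way in all 4 libraries and at 50 CPM or more in the higher class (100 in the Fcer2a split): 15, 8 and 8 in each direction for the Vpreb3-negative, Fcrl5-positive and Fcer2a comparisons. Genes of the rule, mitochondrial and ribosomal protein genes and receptor segments were left out. Where fewer than 5 genes were called between genotypes, the 10 of smallest p are given as values only, and up to 6 in each direction were named for the interaction. Genes of 25 fixed lists could be named whatever their test. Some of the named genes are not reported here.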

Additional observations from a re-analysis of the deposited data

Results flagged for a closer look

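The genotype effect differed between transitional and Vpreb3-negative B cells in 4 genes by the interaction test (edgeR). In each the change of Smc3-cKO over Smc3-WT was lower in the transitional cells. None is a B cell gene. Ccl5, a chemokine of T and NK cells, had a log2 difference of −2.30 (adjusted p = 0.000605), with 113, 32.1, 14.2 and 6.34 CPM in the transitional cells of Smc3-WT replicates 1 and 2 and Smc3-cKO replicates 1 and 2, and 86.6, 25.2, 53.2 and 25.6 CPM in the Vpreb3-negative cells. A single transitional cell of Smc3-WT replicate 1 held 81 of its 153 Ccl5 UMIs. All 4 listed NK cell genes had negative values in this test too (median −1.20), and none was called. The neutrophil granule genes Ngp (−3.87, adjusted p = 0.00103), Camp (−4.28, adjusted p = 0.00553) and Ltf (−6.66, adjusted p = 0.00553) were the others. Ltf had no UMI in the transitional cells of Smc3-cKO replicate 2, so its fitted value depends on the model's prior count. A single Vpreb3-negative cell of Smc3-cKO replicate 1 held 312 of 320 Ngp UMIs, 206 of 211 Camp UMIs and 143 of 145 Ltf UMIs of that sum, and a single transitional cell of Smc3-WT replicate 2 held 53 of 62 Ngp UMIs. Leaving out Smc3-WT replicate 2 kept 1 of the 4 calls, and so did leaving out Smc3-cKO replicate 1. The calls kept were 3 when Smc3-WT replicate 1 was left out and 4 when Smc3-cKO replicate 2 was.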

How the results depend on the processing

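Of 223 gene values in the comparisons, 112 kept their call under every alternative. They kept their direction too, except that a change of sign by less than the SE, in values not called, was counted as kept. Between genotypes the transitional cells gave 0 calls in the fit as reported, 3 by DESeq2, 56 with no filter on low counts, 1 with at most 5% mitochondrial UMIs, 1 without the 5% deepest B cells and 0 to 72 with 1 library left out (72 without Smc3-WT replicate 2, 5 without replicate 1). The Vpreb3-negative cells gave 7 by DESeq2, 19 with no filter and 0 to 172 with a library left out (172 without Smc3-WT replicate 2). With replicate numbers as a block the counts were 25 and 33. The numbers are shared between genotypes, but no label says that they pair animals or batches (r = 0.368 between deviations, 2 pairs). The interaction gave 36 with no filter and 3 to 10 with a library left out.

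The Vpreb3-negative comparison called 1079 genes by DESeq2, 611 without the library block, 1257 with at most 5% mitochondrial UMIs and 1332 to 1926 with a library left out (lowest without Smc3-cKO replicate 1). The Fcrl5-positive comparison called 1000 by DESeq2, 1066 without the block, 547 depth-matched and 1240 to 2419 with a library left out. The lowest came without Smc3-WT replicate 2, and without Smc3-cKO replicate 1 it was 1248. The Fcer2a split called 14 without the block, 427 unthinned and 98 to 173 with a library left out (98 without Smc3-cKO replicate 2, 113 without Smc3-WT replicate 2). The genotype difference in share ran from −2.17 to 4.03 percentage points. The cause of these changes was not tested.

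Some values changed sign, none called in the fit as reported. Without Smc3-cKO replicate 1, Smc3 was at 0.03 between genotypes in the transitional cells and at 0.05 in the Vpreb3-negative cells. Between genotypes Cd24a was −0.22 with at most 5% mitochondrial UMIs and −0.19 to 0.33 with a library left out. Csf3r was −0.17 without Scrublet doublets, and Jchain 0.000173 without cells of at least 10 Jchain UMIs. With a library left out Cr2 ran from −0.71 to 0.62, Fcer2a from −0.18 to 0.16 and Hbb-bs from −3.73 to 0.40. Igkc, in the Vpreb3-negative comparison, was 0.41 without cells of at least 10 Jchain UMIs and −0.52 to 0.17 with a library left out, and Il7r was −0.36 depth-matched and −0.16 to 0.80 with a library left out. With 2 libraries per genotype, a left-out library leaves a lone library that is assumed to vary like the others.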
